A study of Mus musculus with 4 samples.

Results

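The genes described here are Trp53, which encodes the transcription factor p53, and 9 of its established direct targets: Mdm2, Ccng1, Trp53inp1, Zmat3, Perp, Phlda3, Aen, Sesn2 and Ei24. Members were taken by name, with every probe of each gene. All 10 genes had a probe on the array, 15 probes in all, of 18327 named genes and 41174 probes. Of these, 14 probes covering all 10 genes passed the filter on dim signals, which kept 22440 probes in the whole data set. To pass, a probe had to be marked as well above background in both null pools or in both wild-type pools.

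The samples were RNA from mVenus-positive cells, labelled as primordial germ cells (PGCs), which were sorted by flow cytometry from mouse genital ridges at embryonic day 11.5. One group was HP1γ-/-, made by a modified gene-trap method and therefore lacking the heterochromatin protein encoded by Cbx3, and the other was wild type. Embryos of both groups carried the Blimp1-mVenus transgene, so the reporter follows Blimp1 and not a gene of germ cells alone. Each group had 2 independent pools of RNA from 5 or 6 embryos, with about 500 to 3500 sorted cells per embryo, and each pool was hybridised to 1 one-colour Agilent array.

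p53 is kept scarce in unstressed cells by Mdm2, a ubiquitin ligase that marks it for destruction and that p53 itself induces. After DNA damage or other stress p53 accumulates, binds pairs of a short half-site in DNA and raises transcription of genes for cell cycle arrest, repair and cell death. In the mouse germ line p53 is known for removing damaged germ cells and for holding back germ cell tumours in susceptible mouse strains.

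The p53 consensus half-site, a 10-base motif that reads the same on both strands, was searched for without mismatches in RefSeq promoter windows of build GRCm38.p6, which run from 250 bases before to 50 bases after an annotated start. Such windows matched 7 of the 10 genes (not Trp53inp1, Zmat3 or Perp), and 5 of these 7 held a half-site, against 9.55% of all 27025 genes with a window. None of the 7 held 2 half-sites within 13 bases of each other. The following stretches are shown because they hold a match to one such half-site, with the half-site in capitals, 5′ to 3′ on the gene's own strand.
Trp53: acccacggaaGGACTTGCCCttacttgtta
Mdm2: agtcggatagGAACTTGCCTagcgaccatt
Ccng1: agacctgcccGGGCAAGCCTtggcactgaa
Aen: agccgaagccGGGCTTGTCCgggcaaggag
Ei24: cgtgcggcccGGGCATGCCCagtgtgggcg
They lie at chr11:69580274-69580303 (plus strand) for Trp53, chr10:117710925-117710954 (minus) for Mdm2 and chr11:40755452-40755481 (minus) for Ccng1. The Aen stretch is at chr7:78895927-78895956 (plus) and that of Ei24 at chr9:36797325-36797354 (minus). The half-site starts 75 bases before the annotated start of Trp53, 186 before that of Mdm2, 185 before that of Ccng1 and 10 before that of Ei24. That of Aen starts 121 bases before 1 of its 2 annotated starts and just after the other. Phlda3 and Sesn2 had no match in their windows, which says only that these letters are not there. No binding was measured, and a match is a description of the sequence.

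All 4 arrays lay on 1 slide with 1 scan time. Their 75th percentile signals were 125 and 291 intensity units for HP1γ-null pools 1 and 2, against 188 and 219 for wild-type pools 1 and 2. Below, a level is the log2 of a probe's signal relative to that percentile of its own array. The gene-trap target Cbx3 was lower in both null pools, with levels of -1.95 and -1.59 in null pools 1 and 2 against 4.80 and 5.07 in wild type (probe A_51_P160328, log2 difference -6.70, SE 0.24, limma adjusted p = 0.044). Its other probe, A_51_P117162, read -1.24 and -2.78 in null against 5.89 and 5.72 in wild type, and this larger difference of -7.82 missed the threshold (SE 0.55, limma adjusted p = 0.099). Defining germ cell genes did not follow the sort label evenly. Of 8 with a probe, 8 were well above background in null pool 1, 1 in null pool 2 and 7 in each wild-type pool. Their summed level, in units of the 75th percentile, was 25.7 and 0.353 in null pools 1 and 2 against 6.82 and 2.19 in wild-type pools 1 and 2. All 8 endothelial and all 7 leukocyte genes with a probe were well above background on every array. The summed endothelial level was lower in both null pools, 190 and 239 against 334 and 373 in wild type, and all 8 genes had lower means there, by log2 differences of -0.51 to -1.19, none of which passed the threshold. The leukocyte sums were 224 and 194 in null and 221 and 256 in wild type. The part of endothelial content in the results that follow was not tested. Null pool 2 stands apart from the label in this respect, so the difference of a gene is also given without it where that turns the sign or moves the value by over 1.5 times. In such bulk samples, fewer cells of a type and less RNA per cell cannot be told apart.

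The comparison asked whether transcripts of p53 and its targets differed between cells without and with HP1γ. None of the 14 tested probes of the 10 genes differed between genotypes by limma after Benjamini-Hochberg adjustment over all probes at a threshold of 0.05. Across all probes 0.00891% passed. None of the member probes had an unadjusted p under 0.05 either, a level reached by 7.51% of all probes. By the brightest probe of each gene, 5 genes had a higher mean and 5 a lower mean in the null pools. Their median log2 difference was 0.02, beside -0.02 over all 12130 named genes tested, and it was 0.087 without null pool 2. The arrays of the 2 genotypes did not overlap for 1 of the 10 genes, Ei24, which read lower in the null pools, while 38.4% of all genes were without overlap. Precision is limited by the number of arrays: in simulated data of this size the fit recovered 0% of 2-fold and 7% of 4-fold changes. The simulation gave both genotypes the same spread, while over all tested probes the SD was 0.59 in null and 0.28 in wild type. Its shares are therefore only a guide. Directions are relative to the 75th percentile of each array. Scaling to spiked-in RNA instead gave a median of -0.57 over all genes and -0.53 over the members, and 111 probes then passed as higher and 33 as lower, against 0 and 2 before, none of them a member probe.

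Intervals say how large a difference these arrays leave room for in the reported scaling only. Scaling to spiked-in RNA moved the members' median difference to -0.53, and no intervals are given for that scaling. The intervals also rest on null pool 2, where 1 of 8 germ cell markers was well above background. By the brightest probe of a gene, for 8 of the 10 genes the 95% interval of the difference, unadjusted for the number of genes, lay within 2-fold in either direction, as it did for 60.5% of all genes. The exceptions were Ccng1 and Perp, the 2 members whose level by that probe ranged over more than 1 log2 unit across the 4 pools, a range exceeded by 21.2% of all genes. The second probe of Mdm2 also passed both limits, with a range of 1.06 and an interval of -1.19 to 1.10.

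**Figure D1:**
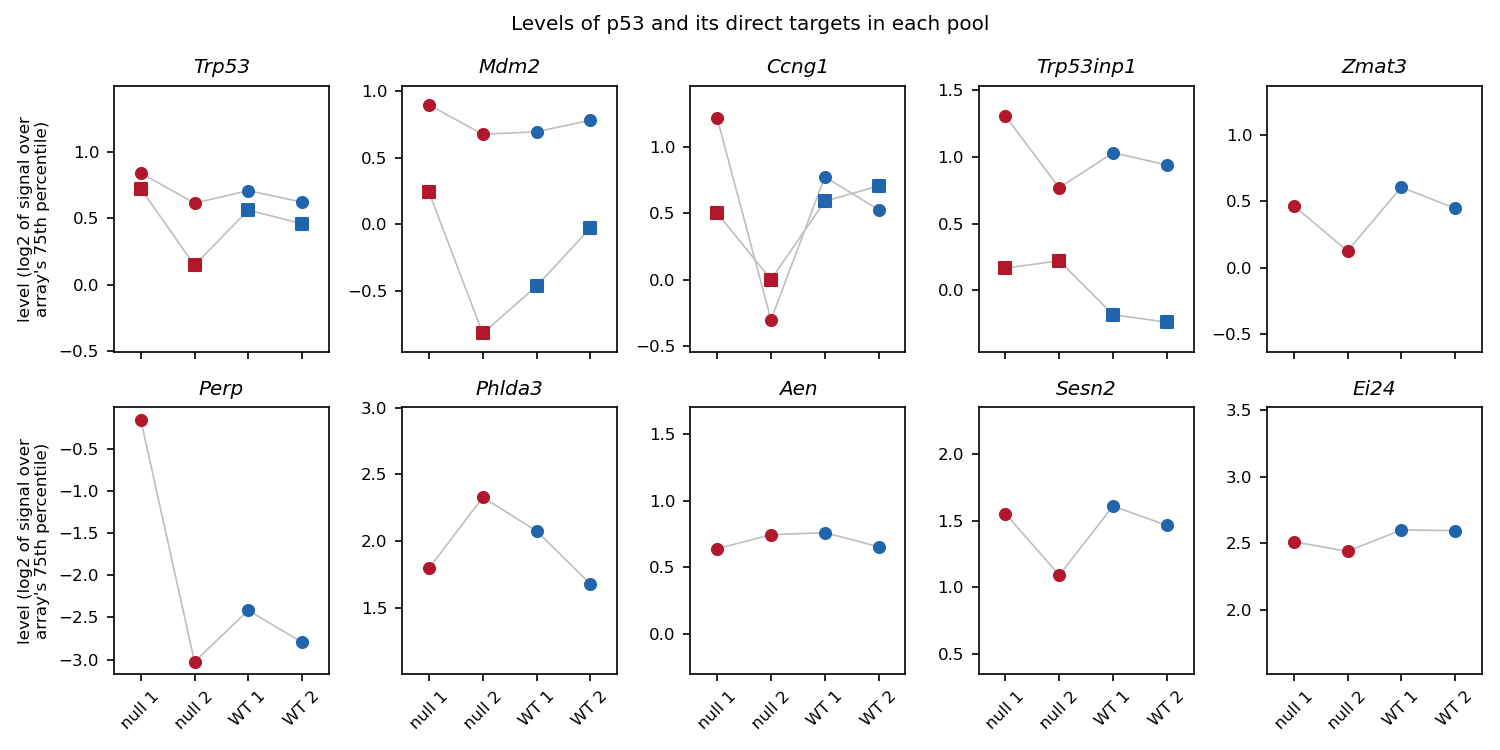
Level of each member in every pool (y axis, log2 of signal over the array's 75th percentile; x axis, HP1γ-null pools in red, then wild-type pools, WT, in blue), with circles for the brightest probe, squares for a further tested probe and grey lines joining the values of 1 probe. Each y axis spans at least 2 log2 units. By the brightest probe, Perp stands high in null pool 1 at -0.15 and Ccng1 low in null pool 2.

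Trp53 itself was measured by 2 probes, and 1 of them was printed 10 times on every array, which gives its technical error. That probe, A_52_P491849, read 0.84 and 0.61 in HP1γ-null pools 1 and 2 and 0.71 and 0.62 in wild-type pools 1 and 2. The null values lie on both sides of wild-type pool 1, so the genotypes overlap. The means were 0.73 ± 0.16 in null and 0.66 ± 0.06 in wild type (SD, n = 2 each), a log2 difference of 0.06 (SE 0.21, 95% interval -0.49 to 0.61, limma adjusted p = 0.98). As a fold this interval runs from 0.714 to 1.53. Without null pool 2 the difference was 0.18. The 10 spots on an array had an SD of 0.09 and 0.05 in the null pools and 0.04 and 0.04 in the wild-type pools. The null pools thus stood further apart than the SD of their own spots, while wild-type pool 2 and null pool 2 differed by less than it. Spots on 1 array share the labelled RNA, so their spread covers the array step only. The second Trp53 probe, A_52_P781398, read 0.72 and 0.15 in the null pools and 0.56 and 0.46 in wild type. It was lowest in null pool 2, and its difference of -0.08 (SE 0.27, limma adjusted p = 0.98) had the opposite sign to the first, but was 0.21 without that pool.

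Mdm2, the inhibitor and target of p53, was also read by 2 probes, which differed in how much they moved. By the brighter one, A_52_P469842, levels were 0.90 and 0.68 in null pools 1 and 2 and 0.69 and 0.78 in wild-type pools 1 and 2. These values overlap, with means of 0.79 ± 0.16 in null and 0.74 ± 0.06 in wild type (SD, n = 2 each). The difference was 0.05 (SE 0.20, 95% interval -0.50 to 0.59, limma adjusted p = 0.99), and 0.16 without null pool 2. The probe printed 10 times, A_51_P201346, read 0.24 and -0.82 in the null pools and -0.47 and -0.03 in wild type. Its highest and its lowest pool were both null, and its range of 1.06 over the pools was far wider than the 0.22 of the other probe. The spots of null pool 2 ran from -0.87 to -0.75 and those of null pool 1 from 0.15 to 0.34, so this spread exceeds spot noise. The difference between genotypes was -0.04 (SE 0.43, limma adjusted p = 0.99), and it was 0.49 without null pool 2. The positions of these probes on the transcript were not used here.

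**Figure D2:**
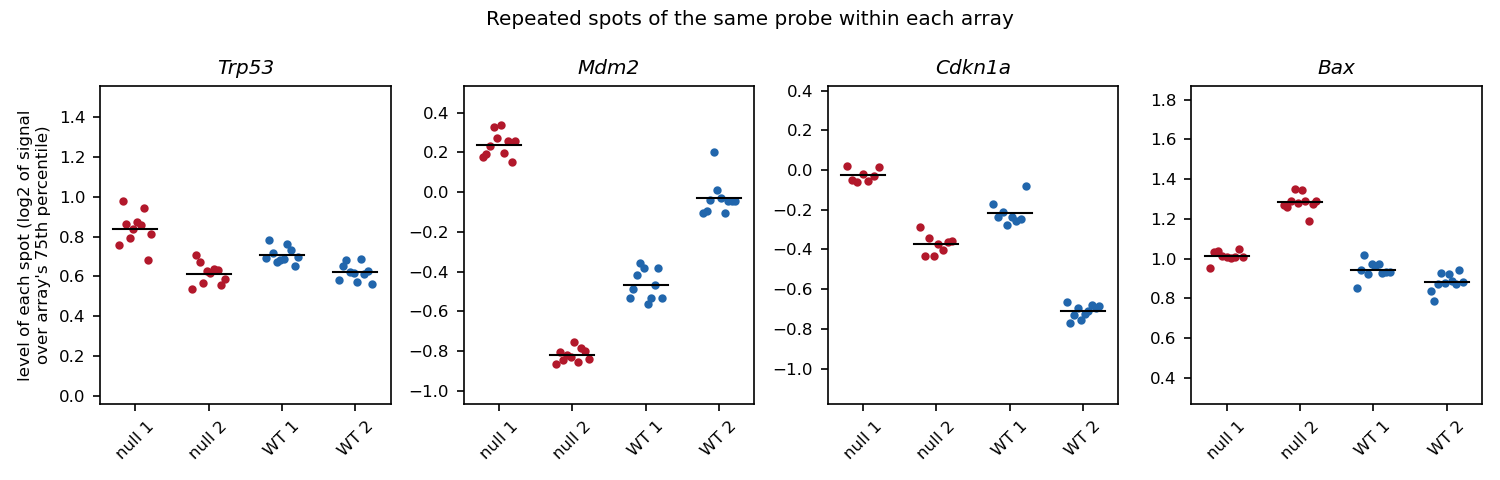
Level of every repeated spot of 1 probe each for Trp53, Mdm2, Cdkn1a and Bax (y axis, log2 of signal over the array's 75th percentile, each axis spanning 1.6 log2 units; x axis, HP1γ-null pools in red, then wild-type pools in blue), with a black line at the mean and spots marked as outliers left out. Spots of 1 array lie close together, and for Mdm2 null pools 1 and 2 are the extremes, at 0.24 and -0.82.

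Ccng1, Trp53inp1 and Zmat3 encode proteins that feed back on p53 or act beside it. Cyclin G1, the product of Ccng1, binds a phosphatase that acts on Mdm2. By probe A_51_P161612 Ccng1 read 1.21 and -0.30 in null pools 1 and 2 and 0.77 and 0.53 in wild-type pools 1 and 2. The null pools enclose the wild-type pools, and the difference was -0.19 (SE 0.55, 95% interval -1.66 to 1.27, limma adjusted p = 0.98). Without null pool 2 the difference was 0.56 and without null pool 1 it was -0.95. The second probe, A_52_P612803, read 0.50 and 0.00 in null and 0.59 and 0.70 in wild type. Here both null pools were below both wild-type pools, as for 23.0% of all probes, with a difference of -0.40 (SE 0.26, limma adjusted p = 0.82) that was -0.15 without null pool 2. Both probes were thus lowest in null pool 2, while null pool 1 was above wild type by 1 probe and below it by the other.

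Trp53inp1, a stress-induced nuclear protein that promotes p53 activity, likewise differed between its probes. By the brighter probe, A_51_P175580, it read 1.31 and 0.77 in null pools 1 and 2 and 1.03 and 0.94 in wild type, with overlap and a difference of 0.05 (SE 0.26, limma adjusted p = 0.99) that was 0.32 without null pool 2. By A_52_P503387 it read 0.17 and 0.22 in null and -0.18 and -0.24 in wild type. That is the one member probe with both null pools above both wild-type pools, which held for 15.1% of all probes. Its pools agreed closely, with an SD of 0.04 in each genotype, and the difference of 0.41 (SE 0.19, 95% interval -0.10 to 0.91) missed the threshold (limma adjusted p = 0.74). Zmat3, a zinc finger protein that binds RNA, read 0.47 and 0.13 in null and 0.60 and 0.45 in wild type. The genotypes overlap narrowly, and the difference was -0.23 (SE 0.23, limma adjusted p = 0.89), or -0.060 without null pool 2.

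**Figure D3:**
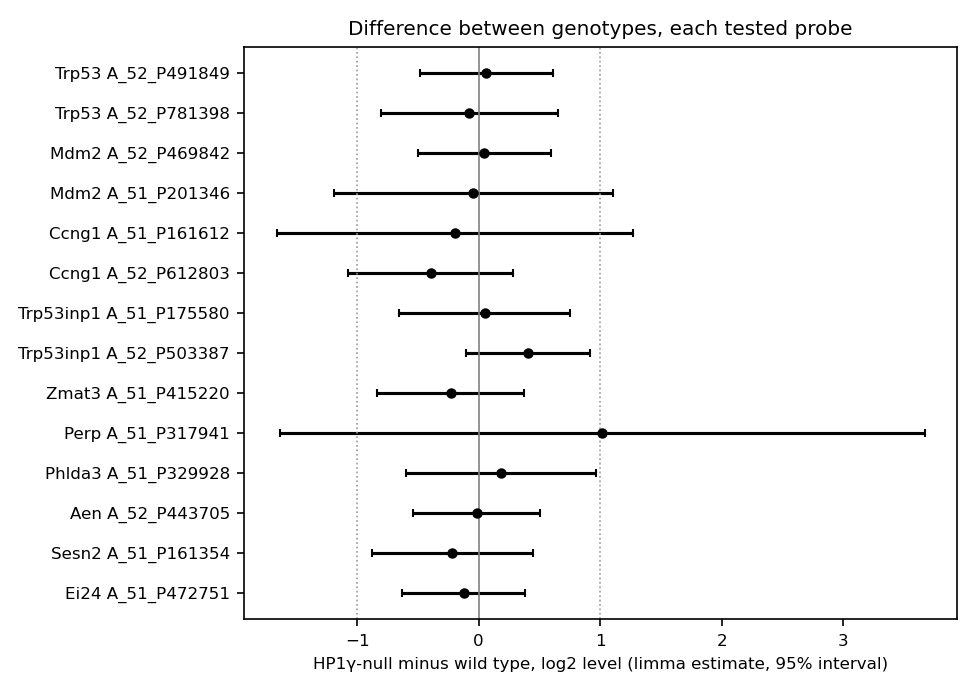
Difference in level between HP1γ-null and wild-type pools (x axis, log2, null minus wild type) for the 14 tested probes, with the limma estimate as a point and its 95% interval as a bar; the solid line marks no difference and dotted lines a 2-fold difference. Every interval includes 0, and that of Perp is the widest, from -1.64 to 3.67.

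Among targets tied to cell death and survival, Perp had the widest range. Perp encodes a membrane protein that takes part in p53-dependent death and also sits in desmosomes of epithelia. It read -0.15 and -3.02 in null pools 1 and 2 and -2.42 and -2.79 in wild-type pools 1 and 2. Null pool 1 alone was high, and the other 3 pools lay close together. The means were -1.59 ± 2.03 in null and -2.61 ± 0.27 in wild type (SD, n = 2 each), a difference of 1.02 (SE 0.99, 95% interval -1.64 to 3.67, limma adjusted p = 0.88). Without null pool 2 the difference was 2.45, and without null pool 1 it was -0.42, so 1 pool decides both size and sign. The range over the pools was 2.87, and 6.22% of all genes ranged over more than 2 log2 units. Null pool 1 was also the pool with the highest summed level of germ cell markers, and of mesonephric ones. The mesonephric sums were 21.0 and 6.51 in null pools 1 and 2 and 1.71 and 1.10 in wild type, and of these 4 genes Krt18, a keratin gene of simple epithelia, was the one well above background on every array. Krt18 read 4.38 and 2.68 in null and 0.65 and -0.03 in wild type, so it was also high in null pool 2, where Perp was lowest. Cdh6 of the same list had a lower mean in null, and Pax2 and Pax8 were not well above background on any array. The part of other cells in the Perp value was not tested.

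The other death and survival targets spanned 0.12 to 0.65 log2 units over the pools by their tested probes. Aen, an exonuclease that acts in p53-dependent apoptosis, read 0.64 and 0.75 in null pools 1 and 2 and 0.76 and 0.66 in wild type by probe A_52_P443705. This was the flattest member, with a range of 0.12 over the pools and a difference of -0.02 (SE 0.19, 95% interval -0.54 to 0.51, limma adjusted p = 0.99), or -0.067 without null pool 2. The second Aen probe, A_51_P481052, is the 1 member probe that was not tested, being well above background on 1 array of each genotype. Its signals were -4.27 and -4.53 in null and -4.26 and -3.88 in wild type. Phlda3, a protein that competes with the survival kinase Akt for membrane lipids, read 1.79 and 2.33 in null and 2.08 and 1.68 in wild type. Here null pool 2 was the highest, and the difference of 0.18 (SE 0.29, 95% interval -0.60 to 0.97, limma adjusted p = 0.94) was -0.082 without it and -0.014 without wild-type pool 2. Ei24, a membrane protein of the endoplasmic reticulum first found as a gene induced by etoposide, read 2.51 and 2.44 in null and 2.60 and 2.60 in wild type. Both null pools were lower, with a difference of -0.12 (SE 0.19, 95% interval -0.63 to 0.39, limma adjusted p = 0.94).

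Sesn2, a sestrin that restrains growth signalling through mTORC1 under stress, read 1.55 and 1.09 in null pools 1 and 2 and 1.61 and 1.46 in wild type. Null pool 1 lay between the wild-type pools and null pool 2 below them. The difference was -0.22 (SE 0.25, 95% interval -0.88 to 0.45, limma adjusted p = 0.91), and without null pool 2 it was 0.016.

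The null pools were also set against each other. By the brightest probe, 8 of the 10 genes were lower in null pool 2 than in null pool 1, all but Aen and Phlda3, where 54.0% of all genes were. Of the 60 tested genes in the wider pathway lists described below, 37 were. By list this ran from 36.4% of repair and metabolic targets to 72.7% of arrest and growth targets. The median of null pool 2 minus null pool 1 was -0.28 over the members and -0.06 over all genes, while wild-type pool 2 minus pool 1 had medians of -0.13 and 0.02. Of the 8 germ cell markers, 6, among them Dppa3, Pou5f1, Tfap2c and Sox2, were highest in null pool 1, then wild-type pool 1, wild-type pool 2 and null pool 2. By the brightest probe Trp53, Ccng1, Trp53inp1 and Perp followed the same order, 4 of the 10 members, as did 11.2% of all genes. That order also held for 14 of the 60 wider pathway genes, among them 6 of 17 upstream regulators, so it is not particular to the members. The second probe of Trp53 also followed it, but those of Ccng1 and Trp53inp1 did not. Ccng1 was highest in wild-type pool 2 by its second probe, and Trp53inp1 in null pool 2. By the brightest probe the 4 members ranged over 0.23 log2 units for Trp53, 0.54 for Trp53inp1, 1.51 for Ccng1 and 2.87 for Perp. The 6 markers in that order ranged over 3.82 for Dnd1 to 10.6 for Dppa3, with signals not well above background included. For Trp53 the lowest pools of that order differed by less than the SD of the spots. The part of germ cell content in these values was not tested.

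**Figure D4:**
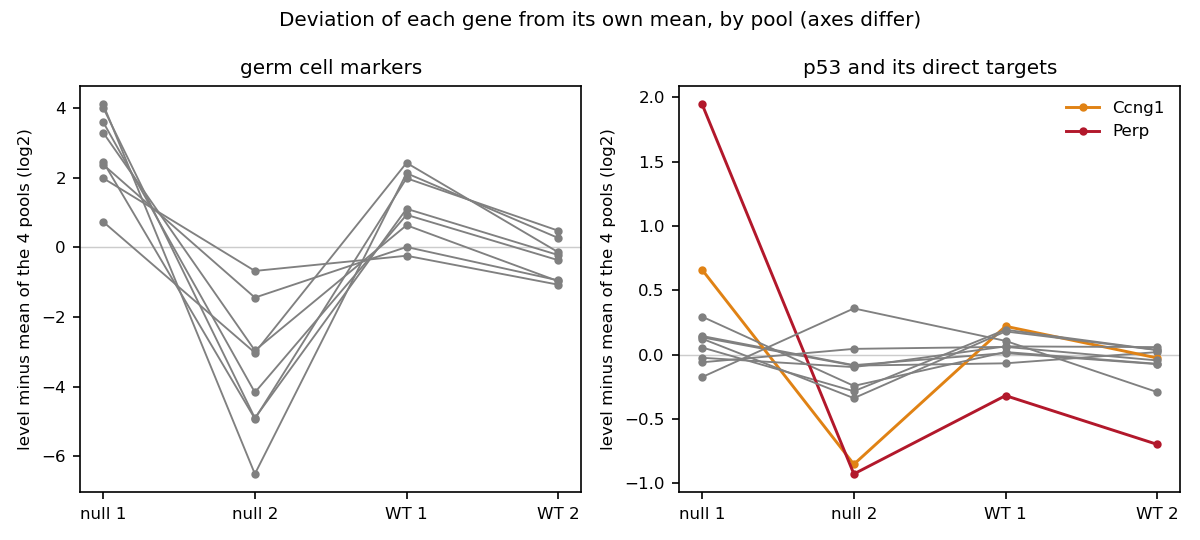
Level of each gene minus its mean over the 4 pools (y axis, log2; x axis, HP1γ-null pools, then wild-type pools, WT) for 8 germ cell markers on the left, signals not well above background included, and for the 10 members by their brightest probe on the right, on separate scales. Perp in red and Ccng1 in orange depart most from 0, and the other members stay within 0.5 of it.

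The named genes nearest to Trp53 in their pattern over the 4 pools were Rnf44, Supt3 and Mipep, with root mean square differences of 0.0052, 0.0097 and 0.013 on the log2 scale after centring each gene. Rnf44 read 2.30 and 2.09 in null pools 1 and 2 and 2.17 and 2.09 in wild type. Within a much looser limit of 0.1 of the Trp53 pattern lay 1277 of the other 12129 genes. Trp53 itself ranged over only 0.23 log2 units, so that limit also takes in genes that hardly vary. It does not say how common the closer matches are.

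The wider pathway was described with 5 lists. They held 64 genes, of which 60 were tested, and limma called none of them in either direction, while 1 (Rprm) had an unadjusted p under 0.05. Across all named genes tested, each by its brightest probe, the share passing the threshold was 0.0%, and 7.31% had an unadjusted p under 0.05. Cbx3 passed only by the dimmer of its probes, so it is not in that share. In all, 10 were higher and 11 lower without overlap, where 17.7% of all genes were higher and 20.7% lower.

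Of 18 upstream regulators of p53, 17 were tested and Cdkn2a was not. Their median difference was 0.06, with 2 genes higher and 1 lower without overlap, beside 17.7% and 20.7% of all genes. Usp7, which removes ubiquitin from Mdm2 and p53, read 3.96 and 3.69 in null pools 1 and 2 and 4.20 and 4.22 in wild type (difference -0.38, SE 0.21, limma adjusted p = 0.78), and its difference was -0.25 without null pool 2. The acetyltransferase gene Kat5 differed by 0.41, its null pools lying at -1.31 and -0.35 against -1.24 and -1.23 in wild type, and by -0.072 without null pool 2. Mdm4, the inhibitory relative of Mdm2, read 1.69 and 0.08 in null and 1.27 and 1.20 in wild type. The null pools enclose wild type, as for Ccng1, and the difference of -0.36 (SE 0.57, limma adjusted p = 0.95) was 0.45 without null pool 2.

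Of the 11 targets for arrest and growth control, all were tested, with a median of 0.11. Among them 5 were without overlap, beside 38.4% of all genes. Rprm, the gene for Reprimo, which halts cells before mitosis, differed most in the whole pathway. It read -0.37 and 2.35 in null pools 1 and 2 and -2.45 and -2.11 in wild type by probe A_52_P627967. Both null pools were above both wild-type pools, and null pool 2 far above null pool 1. The difference was 3.27 (SE 0.94, 95% interval 0.75 to 5.79), and it missed the threshold (limma adjusted p = 0.57). It was 1.90 without null pool 2 and 4.63 without null pool 1. The second Rprm probe, A_51_P278653, read -1.30 and 2.54 in null and -2.20 and -2.23 in wild type. The summed level of stromal markers was highest in the same pool, as were 5 of the 6 genes, Postn being highest in null pool 1. All 6 were well above background on every array, with summed levels of 10.6 and 79.2 in null pools 1 and 2 and 22.2 and 9.09 in wild type. All 7 gonadal somatic markers were well above background in null pool 2 and 3 of 7 on each other array, with sums of 3.30 and 7.56 in null and 2.67 and 1.45 in wild type. These counts are not on equal terms, since 63.3% of all spots were so marked in null pool 2 and 53.3% to 56.7% elsewhere. Gata4 was marked in null pool 2 at -3.55 but not in wild-type pool 1 at -3.52. The part of stromal and gonadal somatic cells in the Rprm value was not tested.

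Cdkn1a, the cyclin-dependent kinase inhibitor p21 and a leading p53 target, read -0.03 and -0.37 in null pools 1 and 2 and -0.21 and -0.71 in wild type. The genotypes overlap, and the difference was 0.26 (SE 0.28, 95% interval -0.48 to 1.01, limma adjusted p = 0.90). The value depends on single pools, being 0.088 without null pool 1, 0.44 without null pool 2, 0.51 without wild-type pool 1 and 0.015 without wild-type pool 2. Its promoter window held 2 half-sites within 13 bases of each other, as in 0.074% of genes, at chr17:29090906-29090937 on the plus strand. Of 28 genes with a window in the arrest, death and repair target lists, 8 held a half-site and 1, Cdkn1a, such a pair. The stretch is shown, both half-sites in capitals, because p53 binds pairs of half-sites, but no binding was measured here.
Cdkn1a: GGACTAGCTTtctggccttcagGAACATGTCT
Psrc1, a gene of the mitotic spindle, differed by 0.43 and Gdf15, a stress-induced cytokine gene, by -0.52 (limma adjusted p = 0.76 and 0.79), both without overlap. Without null pool 2 they differed by 0.28 and -0.17. Other tested probes of Psrc1 differed by 0.67 and 0.52, and by these the genotypes overlap.

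Of 12 death targets, 10 were tested, all but Dram1 and Eda2r, with a median of -0.04. Without overlap were 2 higher and 4 lower, where 17.7% of all genes were higher and 20.7% lower. The difference of Apaf1 was the largest of the tested genes in size. Bax, which opens the outer mitochondrial membrane, read 1.01 and 1.28 in null pools 1 and 2 and 0.94 and 0.88 in wild type (0.24, SE 0.21, limma adjusted p = 0.87). Bbc3, encoding the BH3-only protein Puma, read 1.61 and 1.42 in null and 1.70 and 1.66 in wild type (-0.16, SE 0.20, limma adjusted p = 0.92). Both null pools were above wild type for Bax, which promotes death, and below it for Bbc3, with the same role. Pools were separate in this way, in either direction, for 38.4% of all genes, and neither difference passed the threshold. Apaf1, the scaffold of the apoptosome, differed by -0.53, the death-domain adaptor gene Pidd1 by -0.34 and the proapoptotic gene Siva1 by 0.40 (limma adjusted p = 0.68, 0.83 and 0.82). Other tested probes read differently, with 0.09 and -0.12 for Apaf1, whose genotypes overlap by both, and 0.29 for Pidd1, the opposite sign. Without null pool 2 the differences were 0.10 for Bax, -0.067 for Bbc3, -0.12 for Pidd1 and 0.67 for Siva1.

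All 11 repair and metabolic targets were tested, with a median of 0.22. It was -0.030 without null pool 2 and 0.13 without null pool 1. Of these genes, 1 was higher and 2 were lower without overlap, beside 17.7% and 20.7% of all genes. Gls2, a mitochondrial glutaminase gene, read -0.34 and -2.43 in null pools 1 and 2 and -2.20 and -2.54 in wild type. As for Perp, null pool 1 alone was high, and the difference of 0.98 (SE 0.74, limma adjusted p = 0.84) was -0.060 without that pool and 2.03 without null pool 2. Polh, a translesion polymerase gene, differed by 0.69 and Rrm2b, the p53-inducible subunit of ribonucleotide reductase, by -0.45 (limma adjusted p = 0.82 and 0.74). The Polh value was 0.27 without null pool 1, 1.12 without null pool 2, 0.23 without wild-type pool 1 and 1.15 without wild-type pool 2.

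Paralogs of p53 and of its targets gave 12 tested genes of 13, Trp63 being the one not tested, with a median of -0.12. Of these, 2 were higher and 2 lower without overlap, beside 17.7% and 20.7% of all genes. Sestrin genes differed in sign: Sesn3 read 0.47 and 0.18 in null pools 1 and 2 and 0.13 and -0.07 in wild type (0.29, SE 0.22, limma adjusted p = 0.85), while Sesn1 differed by -0.23 and Sesn2 by -0.22. Other tested probes of Sesn1 differed by -0.62 and -0.52. By the first of these both null pools were below both wild-type pools, as for 23.0% of all probes, and by the other the genotypes overlap. Ccng2, the relative of Ccng1, differed by -0.13, Trp53inp2, which acts in autophagy, by -0.17 and Phlda1 by 0.33 (limma adjusted p = 0.94, 0.91 and 0.84). Without null pool 2 the differences were 0.44 for Sesn3, -0.071 for Sesn1 and -0.19 for Ccng2. Without wild-type pool 2 they were -0.0011 for Sesn1 and 0.092 for Phlda1.

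**Figure D5:**
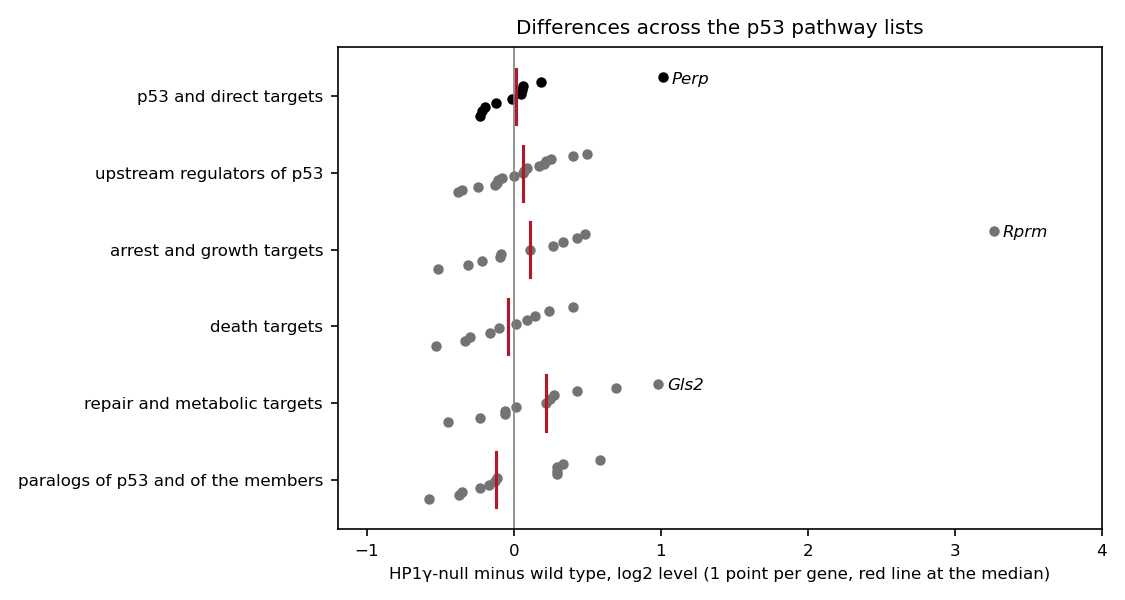
Difference in level between HP1γ-null and wild-type pools (x axis, log2, null minus wild type) for each tested gene of the members (black) and of the 5 wider lists (grey), 1 point per gene by its brightest probe, with a red line at each list's median. Medians lie between -0.12 and 0.22, and Rprm at 3.27, Perp at 1.02 and Gls2 at 0.98 stand furthest out.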

How the data were processed

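Per the labels' protocols, each pool gave 4 ng of RNA, from which Cy3-labelled cRNA was made with a low-input kit after adding control RNA. The deposited intensity values are processed signals of Agilent Feature Extraction 10.7.3.1, which per the file headers subtracted background and removed spatial trends within an array, with no scaling between arrays. Computed here was log2 of that signal minus log2 of the array's 75th percentile over 43379 spots. Spots marked as outliers were left out and spots of 1 probe averaged. The deposited value table holds the same intensity within 0.50%, with column medians of 14.5 and 33.4 for the null pools and 20.6 and 22.6 for wild type, so it is linear and not centred. The marks for well above background are those of the scanner software, which held for 53.3% to 63.3% of spots per array.

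Probes were named through RefSeq accessions (26888 of 41174). A gene is represented by its tested probe of highest mean. The genotype comparison used R 4.3.3 and limma 3.58.1 (two-sided, no covariate, 2 residual degrees of freedom and a prior of 2.43). The replicates are separate embryo pools. The members and lists were chosen with earlier results of these data known. All member probes are named, and from each wider list the 3 genes of smallest p beside Cdkn1a, Bax, Bbc3, Mdm4, Sesn1, Sesn3, Ccng2 and Trp53inp2; 1 gene that this rule names is not reported here. Mesonephric and erythroid markers were also listed. Of 4 mesonephric genes 1 or 2, and of 5 erythroid genes 3, were well above background per array. The fit was checked on simulated data. Alternatives were other scalings, background correction, filters, variance models, a replicate block and leaving out each array. The normexp correction, chosen after seeing the data, used median spot signals, since the files hold no mean signal column.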

Additional observations from a re-analysis of the deposited data

How the results depend on the processing

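No member probe passed the threshold under any of the 13 alternatives. Scaling to spiked-in RNA gave a median of all genes of -0.57, against -0.02 in the reported scaling, and the values it gave are to be read against that shift. Under it 144 probes passed, and the medians were -0.53 for the members, -0.49 for upstream regulators, -0.44 for arrest targets, -0.59 for death targets, -0.33 for repair and metabolic targets and -0.66 for paralogs. Genes without overlap then numbered 8 of 10 members, 11 regulators and 7 paralogs, beside 62.5% of all genes. Signs turned under it for Trp53 (-0.48), Mdm2 (-0.50), Trp53inp1 (-0.49 and -0.14), Phlda3 (-0.36), Kat5 (-0.14), Psrc1 (-0.11), Cdkn1a (-0.28), Siva1 (-0.14), Bax (-0.31), Phlda1 (-0.21) and Sesn3 (-0.25). Under quantile normalization Aen turned to 0.015. No alternative with 1 slide as a block was possible. Over all probes, 2 passed with all arrays, 0 without a filter on dim probes (1474 with an unadjusted p under 0.05), 1 with the filter on all 4 arrays, 7 with an intensity trend and 13 with the replicate block. Same-numbered pools share only a number (correlation of deviations 0.07), and the block changed no call of a member. With normexp 2 members and 3 arrest targets were without overlap, beside 33.4% of all genes. With the mean of a gene's probes 2 members were, beside 38.9% of all genes. Normexp also moved differences by over 1.5 times, to 0.47 for Perp, 0.53 for Gls2, -0.21 for Gdf15, -0.15 for Rrm2b, 0.35 for Polh, -0.16 for Pidd1, 0.013 for Trp53inp1 (A_51_P175580), 0.025 for Mdm2 (A_52_P469842) and -0.045 for Trp53 (A_52_P781398). The normexp alternative was chosen after seeing the data. The cause of these shifts was not tested.

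Leaving out 1 array leaves 1 pool in a genotype. A probe's own spread then comes from the other genotype's pools alone, so only sizes are given here. The members' median ran from -0.19 to 0.087, that of regulators from -0.16 to 0.16, arrest targets from -0.18 to 0.21, death targets from -0.29 to -0.031, repair targets from -0.030 to 0.25 and paralogs from -0.14 to 0.072. Counts without overlap ran from 2 to 9 members, 4 to 15 regulators, 5 to 11 arrest targets, 6 to 10 death targets, 4 to 10 repair targets and 5 to 11 paralogs, since 1 array avoids overlap more easily than a pair (52.98% to 85.1% of all genes). Differences that changed sign ran from -0.051 to 0.18 and -0.36 to 0.21 for the Trp53 probes, -0.062 to 0.16 and -0.57 to 0.49 for Mdm2, -0.95 to 0.56 for Ccng1 and -0.22 to 0.32 for Trp53inp1. They ran from -0.42 to 2.45 for Perp, -0.082 to 0.45 for Phlda3, -0.068 to 0.038 for Aen, -0.45 to 0.016 for Sesn2, -0.072 to 0.88 for Kat5, -1.16 to 0.45 for Mdm4 and -0.060 to 2.03 for Gls2. Without a change of sign, differences that moved by over 1.5 times ran from -0.40 to -0.060 for Zmat3, -0.65 to -0.15 for Ccng1 (A_52_P612803), 1.90 to 4.63 for Rprm, 0.015 to 0.51 for Cdkn1a, -0.87 to -0.17 for Gdf15, 0.28 to 0.58 for Psrc1, -0.55 to -0.12 for Pidd1 and 0.13 to 0.67 for Siva1. The ranges were 0.10 to 0.37 for Bax, -0.26 to -0.067 for Bbc3, 0.23 to 1.15 for Polh, -0.51 to -0.25 for Usp7, 0.092 to 0.58 for Phlda1, 0.15 to 0.44 for Sesn3, -0.46 to -0.0011 for Sesn1 and -0.19 to -0.063 for Ccng2.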
